A study of Mus musculus with 3 samples.

Results

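The 9 genes described here, Podxl, Synpo, Clic5, Ptpro, Magi2, Rasl11a, Enpep, Foxc1 and Foxc2, are genes of the podocyte, the epithelial cell that covers the capillaries of the kidney glomerulus. They were chosen by symbol, and all 9 were found among the 28875 nuclear-encoded features listed over 3 plates of single mouse embryonic kidney cells. Each plate was a 384-well plate made by SORT-seq, a method in which single cells are sorted into wells and the 3′ ends of their messenger RNAs are counted with molecular barcodes. The study traced cells that express Lgr6, a stem cell receptor gene, in kidneys before and after culture as explants.

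The first group was kidney explants of E11.5 embryos, grown for 7 days by the sample's title and for 5 days by its stage label. The second was explants of E12.5 embryos after 5 days of culture. Both cultured groups carried the LGR6-EGFP-IRES-CreERT2 allele together with a ROSA26-tdTomato reporter. The third group was uncultured E11.5 kidney with the LGR6-EGFP-IRES-CreERT2 allele alone. The plots call these groups E11.5 cultured, E12.5 cultured and E11.5 uncultured. All 3 groups were C57BL/6 and all carried the Lgr6 knock-in allele, so no plate was free of it. Explants grew in Dulbecco's modified Eagle medium with 10% fetal calf serum, and kidneys and explants were taken apart with collagenase before sorting. The sort gate, the number of embryos and any tamoxifen given to start recombination are not stated in the labels. There was 1 plate per group, so there was no replicate check and no test between groups. Culture, the reporter allele and the plate changed together and cannot be told apart. The E12.5 explants also differed from the uncultured kidneys in embryonic day. The explant plates differed from each other in embryonic day and, by title, in days of culture. These differences cannot be told apart from the plate either.

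A podocyte ends in interlocking foot processes joined by the slit diaphragm, a junction built around nephrin (Nphs1). Its free surface carries the charged sialomucin podocalyxin, and its processes are shaped by actin and its partner synaptopodin. Podocytes arise late in the formation of each nephron, after the nephron progenitors of the metanephric mesenchyme have formed an epithelium, and most of the 9 genes are also used by other cells such as endothelium, mesothelium, nerve cells, pericytes and mesenchyme.

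Of the wells meant to hold 1 cell, 300 of the E11.5 explant plate, 200 of the E12.5 explant plate and 337 of the uncultured plate passed the filter, with 1000 or more counts of which mitochondrial genes gave 30% or less. Their median depths were 8992, 9212 and 6732 counts. On each explant plate 42 wells were labelled as holding more than 1 cell, and 36 of the E11.5 and 38 of the E12.5 explant plate passed. Levels are CPM, counts per 1000000 over the summed wells of a group, with exact Poisson 95% intervals. Intervals, here and for ratios and shares, cover counting error only. One count in a well of median depth stood for 111, 109 and 149 CPM on the 3 plates. In the 15 control wells of each plate the members gave 1 count in all on the E11.5 explant plate (Foxc1), 1 on the E12.5 explant plate (Podxl) and 3 on the uncultured plate (2 of Foxc1 and 1 of Foxc2). These wells held 2738, 2940 and 13768 counts in all on the same plates. Foxc1 was thus at 365 CPM (9.25 to 2035) in the E11.5 explant control wells and 145 (17.6 to 525) in the uncultured ones. Podxl was at 340 CPM (8.61 to 1895) in those of the E12.5 explant plate, and Foxc2 at 72.6 (1.84 to 405) in the uncultured ones. Such intervals are too wide to set a background level for the members.

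The data hold a few wells with the whole set of podocyte genes and many wells in which single members are present without it. Wells with 3 or more counts in all of Nphs1 and Ddn, the second coding for the podocyte protein dendrin, numbered 1 of 300 on the E11.5 explant plate, 1 of 200 on the E12.5 explant plate and 0 of 337 on the uncultured plate, a count of 0 that allows a share of up to 0.890% by the floor of 3 wells and of up to 1.09% by the exact binomial interval. These are shares of wells with such counts at the depths reached, not of cells that express the genes. Among multi-cell wells there were 2 of 36 and 2 of 38 on the E11.5 and E12.5 explant plates. Over both explant plates these wells made up 5.41% of multi-cell wells (1.49 to 13.3%) and 0.400% of single-cell wells (0.0485 to 1.44%). This rule for podocyte wells was chosen after the values were seen.

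All 9 members were present in the single-cell podocyte well of each explant plate. Well G13 of the E11.5 explant plate held, in 6079 counts, 45.2 counts of Podxl, 11 of Synpo, 4 of Clic5, 5 of Ptpro, 4 of Magi2, 13 of Rasl11a, 11 of Enpep, 2 of Foxc1 and 9 of Foxc2. Well L23 of the E12.5 explant plate held, in 11661 counts, 45.2 of Podxl, 12 of Synpo, 8 of Clic5, 2 of Ptpro, 6 of Magi2, 1 of Rasl11a, 3 of Enpep, 11 of Foxc1 and 8 of Foxc2. The podocyte transcription factor gene Wt1 was high in both, with 33.1 counts in G13 and 25.1 in L23. Dendrin transcripts were more numerous in G13, with 13 of Ddn, than in L23, with 2, whereas nephrin had 0 counts in G13 and 3 in L23. The mural cell genes Pdgfrb and Acta2 had 1 count each in G13 and 0 and 3 counts in L23.

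Set against the other single-cell wells of the plate, 9 of 9 members were at least 2-fold higher in G13 (14.5% of genes tested) and 9 of 9 in L23 (16.4%). In 1 well a single count can pass this threshold, so these numbers restate that the members were detected there and are given as a description. Podxl was 681-fold higher in G13 and 378-fold (224 to 645) higher in L23, and Clic5 351-fold and 401-fold. The forkhead genes had smaller ratios, with Foxc2 at 14.5 in G13 and 4.38 in L23, and Foxc1 at 7.43 (0.891 to 27.3) in G13 on 2 counts and 12.7 in L23. Rasl11a was 63.5-fold higher in G13, and in L23 its single count gave a ratio of 2.42 (0.0604 to 13.8).

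The multi-cell podocyte wells held the same genes with gaps. Well D21 of the E11.5 explant plate held all 9, led by 84.9 counts of Podxl, 15 of Enpep and 11 of Synpo. Well E21 of that plate held 8, with 40.2 counts of Podxl and no Ptpro. Well E19 of the E12.5 explant plate held 8, with 41.2 counts of Podxl, 23.1 of Rasl11a and no Foxc1. Well C23 of that plate also held 8, with 44.2 counts of Podxl, 15 of Ptpro, 96.1 of Wt1 and no Magi2. Over other multi-cell wells of the plate, 8 of 8 tested members were at least 2-fold higher in the E11.5 explant wells (21.1% of genes tested), and 8 of 8 in those of the E12.5 explants (17.5%), again a description of 2 wells each. A further multi-cell well of the E11.5 explant plate, F18, lay outside the rule with 1 count of Ddn and 0 of Nphs1, yet it held 8 members, with 32.1 counts of Podxl, 17 of Wt1 and no Rasl11a.

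**Figure D1:**
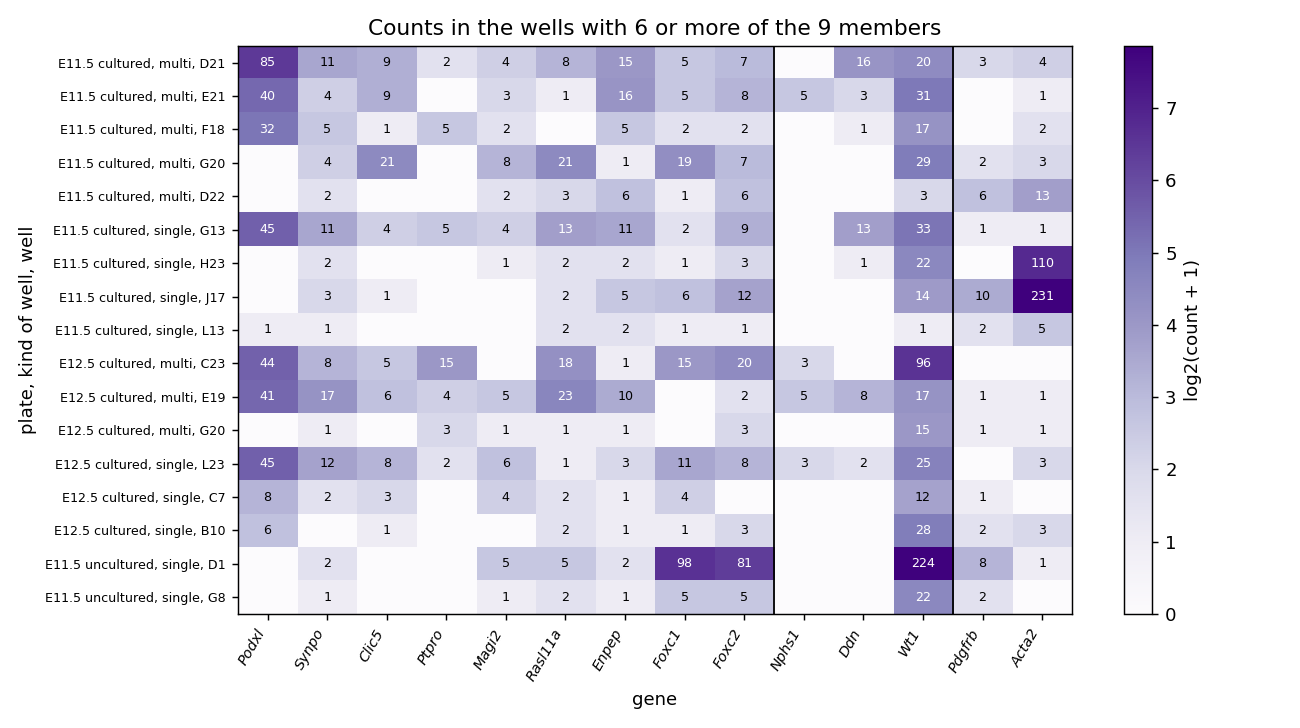
Counts of the 9 members and of Nphs1, Ddn, Wt1, Pdgfrb and Acta2 (columns) in the 17 wells with counts of 6 or more members (rows, named by plate and well). G13, L23 and D21 hold all 9 members, and the 2 uncultured wells with 6 members hold none of Nphs1 and Ddn.

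Promoter sequences from the RefSeq table were used for 6 of the 9 members. Those of Clic5, Ptpro and Enpep, 3 genes of differing function that were all at least 2-fold higher on both explant plates, are shown as the 250 bases before the annotated start, 5′ to 3′ on the gene's strand. Capitals mark matches to CANNTG (the E-box), CCAAT or TATAAA on either strand.
Clic5: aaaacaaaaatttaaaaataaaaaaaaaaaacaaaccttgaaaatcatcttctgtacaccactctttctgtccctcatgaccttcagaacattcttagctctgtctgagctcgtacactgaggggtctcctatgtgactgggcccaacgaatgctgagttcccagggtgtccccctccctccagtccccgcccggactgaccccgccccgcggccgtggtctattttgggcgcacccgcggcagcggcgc
Ptpro: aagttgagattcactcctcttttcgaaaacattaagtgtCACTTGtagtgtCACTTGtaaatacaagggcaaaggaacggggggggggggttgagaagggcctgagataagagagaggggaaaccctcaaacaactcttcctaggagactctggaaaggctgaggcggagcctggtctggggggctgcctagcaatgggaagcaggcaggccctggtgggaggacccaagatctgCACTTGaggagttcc
Enpep: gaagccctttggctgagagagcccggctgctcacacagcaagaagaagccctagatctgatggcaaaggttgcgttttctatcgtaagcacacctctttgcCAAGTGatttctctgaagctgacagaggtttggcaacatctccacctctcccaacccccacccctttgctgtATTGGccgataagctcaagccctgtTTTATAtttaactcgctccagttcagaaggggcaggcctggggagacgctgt
In GRCm38.p6 these lie at chr17:44188322-44188571 (plus strand), chr6:137252049-137252298 (plus strand) and chr3:129332750-129332999 (minus strand). Of the motifs searched, Clic5 held none, Ptpro held 3 E-boxes starting at -211, -199 and -15 from the start, and Enpep held 1 E-box at -149, 1 reverse CCAAT at -77 and 1 reverse TATAAA at -52. Such matches are common: among 32851 mouse promoters of that length 66.2% held CANNTG, 33.9% CCAAT and 12.4% TATAAA. None of the 3 held GTAAACA (3.17% of promoters), TAATTA (4.84%), GCGGGGGCG (2.57%) or the CArG box (1.47%). Their GC contents of 52.8, 53.6 and 52.4% lay close to the median over all promoters of 52.4%.

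Among the surface and foot process genes, Podxl, which codes for podocalyxin, was at 25.0 CPM (19.8 to 31.0) on the E11.5 explant plate, 29.5 (22.9 to 37.2) on the E12.5 explant plate and 28.9 (23.9 to 34.5) on the uncultured plate. The ratios of cultured to uncultured, 0.866 (0.643 to 1.16) and 1.02 (0.746 to 1.38), did not differ from 1 beyond counting error. These near-equal sums had different make-ups: 17 and 5 wells held a Podxl count on the E11.5 and E12.5 explant plates, against 25 on the uncultured plate. A single well held 56.4% (44.7 to 67.3%) and 65.3% (52.8 to 76.3%) of the counts on the explant plates, and 15.8% on the uncultured plate. Without the podocyte wells G13 and L23 the ratios to uncultured became 0.379 and 0.356, both at least 2-fold lower.

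Synpo codes for synaptopodin, the actin-binding protein of foot processes and of nerve cell spines. It was at 48.6 CPM (41.3 to 56.8) on the E11.5 explant plate, 63.0 (53.3 to 74.0) on the E12.5 explant plate and 10.3 (7.48 to 13.9) on the uncultured plate. The explant plates were higher by factors of 4.70 (3.34 to 6.75) and 6.10 (4.31 to 8.77). In contrast to Podxl its counts were spread over 80 and 52 cultured wells, against 36 uncultured wells, and without G13 and L23 the ratios were 4.38 and 5.63. They were smaller with every well weighted equally, at 3.03 and 2.77, and without wells deeper than 3 times the median, at 3.11 and 3.07.

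Clic5, Ptpro and Magi2 act inside the foot process, as a protein that ties podocalyxin to the actin skeleton, a receptor tyrosine phosphatase of the apical membrane and a scaffold of the slit diaphragm. Clic5 gave 10 counts in 6 wells (E11.5 explants) and 12 counts in 3 wells (E12.5 explants), against 2 counts in 2 uncultured wells. Ptpro gave 20 counts on each explant plate, in 10 and 13 wells, against 5 counts in 4 uncultured wells. Magi2 was at 18.4 CPM (14.0 to 23.7) and 14.1 (9.67 to 19.7) on the E11.5 and E12.5 explant plates, against 9.38 (6.67 to 12.8) on the uncultured plate.

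Relative to uncultured wells, the ratios of Clic5 were 6.48 (1.38 to 60.8) on the E11.5 and 10.6 (2.37 to 97.7) on the E12.5 explant plate and rest on 2 uncultured counts. Without G13 and L23 they were 3.89 and 3.56, both on too few counts for a call. The ratios of Ptpro were 5.18 (1.89 to 17.7) and 7.08 (2.58 to 24.2). Magi2 stayed under the 2-fold threshold, at 1.96 (1.29 to 3.02) and 1.5 (0.913 to 2.45).

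Rasl11a, a small GTPase of the Ras family, was at 37.7 CPM (31.3 to 45.0) on the E11.5 explant plate and 35.8 (28.5 to 44.3) on the E12.5 explant plate, against 17.6 (13.8 to 22.1) on the uncultured plate. The ratios were 2.15 (1.59 to 2.91) and 2.04 (1.47 to 2.83), and leaving out G13 brought that of the E11.5 explant plate to 1.92, under the threshold. Enpep codes for aminopeptidase A, a surface enzyme that trims angiotensin and is found on podocytes, proximal tubule and pericytes. It was at 58.6 CPM (50.5 to 67.6) and 28.1 (21.7 to 35.7) on the E11.5 and E12.5 explant plates, against 9.38 (6.67 to 12.8) on the uncultured plate, higher by factors of 6.25 (4.4 to 9.06) and 3.0 (1.99 to 4.57). Enpep was the 1 member of 9 at least 2-fold higher in the E11.5 than the E12.5 explant plate (8.35% of genes tested), at 2.08-fold (1.57 to 2.80), and 0 of 9 were at least 2-fold lower (4.54%).

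The forkhead transcription factor genes Foxc1 and Foxc2, which are used in early kidney mesenchyme and again in podocytes, had lower levels on the explant plates than on the uncultured plate. Foxc1 was at 44.9 CPM (37.8 to 52.8) on the E11.5 explant plate, 78.8 (67.8 to 91.0) on the E12.5 explant plate and 222 (208 to 237) on the uncultured plate, with ratios to uncultured of 0.202 (0.168 to 0.241) and 0.354 (0.301 to 0.415). Foxc2 was at 105 CPM (94.1 to 117), 159 (144 to 176) and 251 (236 to 266) on the same plates, with ratios of 0.419 (0.369 to 0.474) and 0.635 (0.563 to 0.715). Foxc1 was present in 94 of 300 wells of E11.5 explants and 74 of 200 of E12.5 explants, against 235 of 337 uncultured wells. Foxc2 was present in 129, 130 and 227 of these wells. The deepest uncultured well, D1, held 8.77% of all counts of that plate, 10.6% of its Foxc1 and 7.75% of its Foxc2. In the uncultured macrophage-like wells, cells of blood rather than mesenchymal origin, Foxc1 was present in 4 of 20 wells and Foxc2 in 6 of 20, at a median depth of 6121 counts, against 6732 over all uncultured wells.

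In sum over the 9, 5 members were at least 2-fold higher on the E11.5 explant than the uncultured plate (20.9% of genes tested) and 2 were at least 2-fold lower (11.4%). For the E12.5 explant plate 5 were higher (18.9%) and 1 was lower (13.1%). The median log2 ratio of the 9 was 1.10 and 1.03 in the 2 comparisons, beside 0.07 and -0.01 over all genes tested. Both comparisons share the uncultured plate, and these numbers include the podocyte wells G13 and L23. Without G13, Rasl11a and Clic5 were no longer called higher on the E11.5 explant plate. Without L23, Clic5 was no longer called higher on the E12.5 explant plate. Podxl was then at least 2-fold lower on both explant plates. The ratio thresholds count a gene only with at least 10 counts over the pair.

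**Figure D2:**
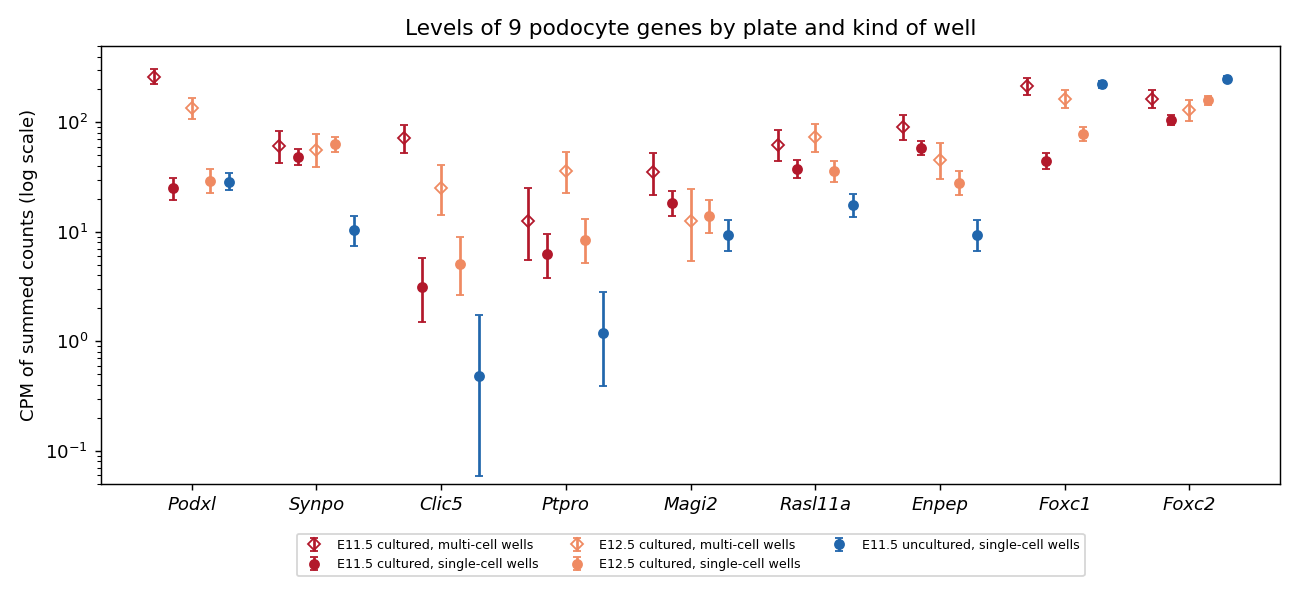
Level of each member in CPM on a log axis, in single-cell and multi-cell wells of the explant plates and in uncultured wells, with exact Poisson 95% intervals. The intervals of Podxl overlap in the 3 single-cell groups, those of Foxc1 and Foxc2 lie lower in the cultured ones, and Clic5 and Podxl are highest in multi-cell wells.

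A further 48 genes of a podocyte list were read beside the members. On the E11.5 explant plate 44 of these 48 had enough counts, of which 11 were at least 2-fold higher than on the uncultured plate (20.9% of all genes tested) and 6 lower (11.4%), and for the E12.5 explant plate 12 of 42 were higher (18.9%) and 5 lower (13.1%). The list's median log2 ratios were 0.17 and 0.09, beside 0.07 and -0.01 over all genes tested. Ddn had 18 counts on the E11.5 explant plate, 6 on the E12.5 explant plate and 1 on the uncultured plate, a ratio of 23.3 (3.68 to 972) for the E11.5 explants. Of the 18, 13 lay in G13, a well chosen on Ddn, and the counts outside it were too few for a call. The podocyte regulator Lmx1b was 8.71-fold and 11.2-fold lower on the E11.5 and E12.5 explant plates. Wt1, also a gene of nephron progenitors, was at 247 and 169 CPM on these plates, against 686 on the uncultured plate. In the control wells of the uncultured plate Wt1 was at 1380 CPM (831 to 2155), with 19 counts in 10 of 15 wells. Control wells of the E11.5 and E12.5 explant plates gave 1 and 0 counts of Wt1.

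In multi-cell wells 4 of 9 members were at least 2-fold higher than in single-cell wells of the E11.5 explant plate (6.02% of genes tested) and 0 lower (9.35%). The E12.5 explant plate had 5 higher (9.65%) and 0 lower (11.2%). Podxl was at 262 CPM in multi-cell against 25.0 in single-cell wells of the E11.5 explant plate, 10.5-fold (8.0 to 13.9) higher, and at 135 against 29.5 CPM on the E12.5 explant plate, 4.57-fold (3.29 to 6.36) higher. Without the podocyte wells the ratio was 5.99 on the E11.5 explant plate, where well F18 remained, and 0.158 on the E12.5 explant plate, on 1 count left in multi-cell wells. The number of members called there without podocyte wells was 0 higher and 4 lower. The share over all genes was not computed for this alternative, so these numbers are a description only. The number of cells in such a well is not stated, so more podocytes and more RNA per podocyte cannot be told apart.

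Clic5 and Foxc1 were called higher in multi-cell wells of the E11.5 explant plate also when no podocyte well was counted. Clic5 had ratios of 23.0 (11.4 to 51.0) and 4.88 (2.17 to 11.3) on the E11.5 and E12.5 explant plates, and of 23.6 and 4.73 without those wells, the second on too few counts for a call. On the E11.5 explant plate 46.8% of the multi-cell Clic5 counts came from well G20, which held 21.1 counts of Clic5 and 21.1 of Rasl11a but 0 of Podxl, Nphs1 and Ddn, together with the early nephron genes Pax8, Wnt4 and Jag1. The ratios of Foxc1 were 4.79 (3.75 to 6.08) and 2.10 (1.64 to 2.68), and 4.61 and 1.98 without those wells, the second under the threshold. Its top multi-cell well on the E11.5 explant plate was F19, with 48.3 counts. F19 also held Wnt4 and Jag1, listed here for the early nephron, and Cdh16 and Epcam, listed for ureteric epithelium. In a multi-cell well such genes can come from different cells. Ptpro and Rasl11a were 4.21-fold (2.21 to 8.08) and 2.05-fold (1.40 to 2.96) higher in multi-cell wells of the E12.5 explant plate and had ratios of 0.842 and 0.274 without the podocyte wells, the opposite direction. Ptpro was 2.04-fold (0.776 to 4.83) higher on the E11.5 explant plate, and 2.09-fold without those wells.

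Outside the podocyte wells Podxl lay largely in wells with markers of endothelium or of the coelomic lining. Of the uncultured wells, 24 had at least 3 of 9 endothelial markers, and these held 95 of 120 Podxl counts (79.2%) and 21.8% of all counts. Podxl was at 105 CPM there, 13.7-fold (8.72 to 22.2) higher than in the other wells. A further 16 counts lay in 4 wells with coelomic epithelium markers, at 647 CPM, and 9 in the remaining 309 wells. The 4 uncultured wells with the most Podxl, with 19, 12, 12 and 10 counts, each had 9 of 9 endothelial markers. Across the 337 uncultured wells Podxl was most like Plvap, a gene of endothelial diaphragms (Pearson r = 0.54), Shank3 (0.51) and Prkcdbp (0.48), values that describe sparse counts from shared wells.

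**Figure D3:**
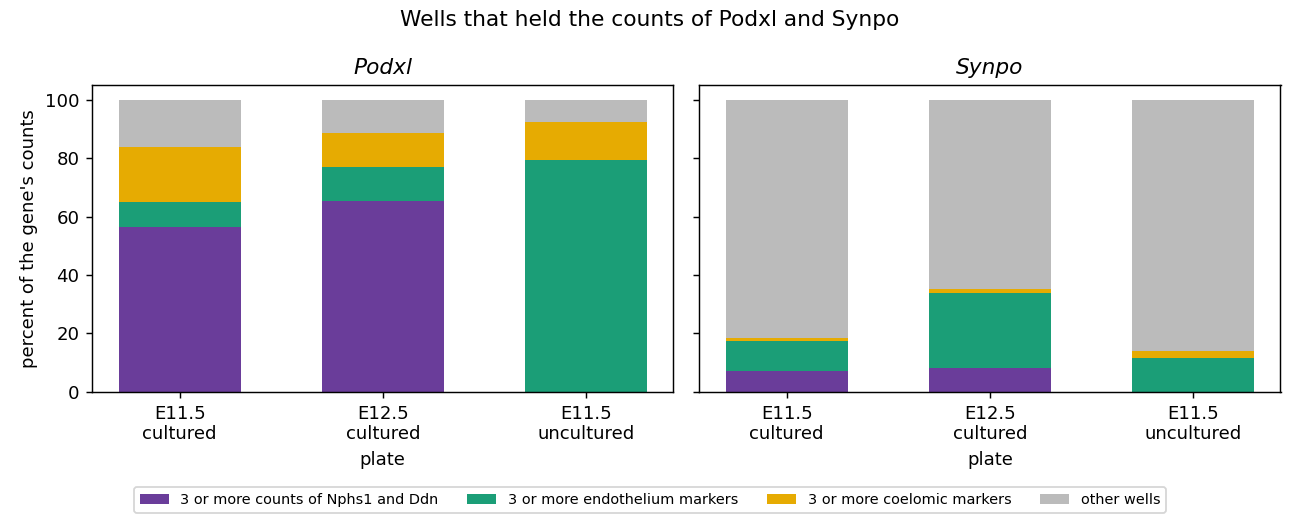
Percent of the Podxl and Synpo counts of each plate by kind of well, as stacked bars. Endothelial wells hold 79.2% of Podxl on the uncultured plate, and the single podocyte well holds 56.4% and 65.3% on the E11.5 and E12.5 explant plates.

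The Podxl counts of the explant plates outside G13 and L23 were divided among these kinds of well. On the E11.5 explant plate 7 counts (8.73%) lay in 2 endothelial wells, 15 (18.7%) in 2 coelomic wells and 13 (16.2%) in 12 other wells. On the E12.5 explant plate endothelial, coelomic and other wells held 8 counts (11.6%) each, the first and second in 1 well each. The coelomic one was well C7, which held 7 of the 9 members and 12 counts of Wt1.

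Synpo outside podocytes was met in several kinds of well. On the uncultured plate 31 of 43 counts (72.1%) lay in the 76 wells with skeletal muscle and cartilage markers, which held 46.8% of all counts, a 2.94-fold (1.47 to 6.28) higher level. On the E12.5 explant plate 38 of 148 counts (25.7%) lay in 9 endothelial wells, 2.75-fold (1.85 to 4.0) higher than elsewhere. In 32 wells of that plate with erythroid markers it was 1.93-fold (1.37 to 2.71) higher, with 62 counts (41.9%). In 6 macrophage-like wells it was 1.96-fold (1.09 to 3.31) higher, with 16 counts in 1 well. These kinds of well were deep, with medians of 18110, 13526 and 14214 counts against 9212 over all kept wells. The endothelial ratio was 1.61 (0.897 to 2.71) on the E11.5 explant plate and 0.473 (0.145 to 1.20) on the uncultured plate. A well can be of several kinds. Nearly all Synpo counts of the E12.5 explant plate, 145 of 148, lay in the 153 wells with mural and smooth muscle markers. These held 85.4% of all counts, and Synpo was 8.28-fold (2.78 to 40.6) higher in them than elsewhere. The same wells had Synpo ratios of 1.92 (1.11 to 3.61) on the E11.5 explant plate and 0.862 (0.452 to 1.68) on the uncultured plate. In 24 macrophage-like wells of the E11.5 explant plate, with a median depth of 11508, it was present in 5, and in 20 such uncultured wells in 0.

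Ptpro, which is also used by macrophages and by growing nerve cells, had 3 of its 5 uncultured counts in 20 macrophage-like wells, too few for a ratio. Such wells of the E11.5 and E12.5 explant plates had Ptpro ratios of 1.36 (0.256 to 4.71) and 0.853 (0.0205 to 5.36). On the E12.5 explant plate 5 of 20 counts lay in 4 wells with neural markers, 15.7-fold (4.47 to 45.5) higher than elsewhere. Only 2 of these 4 wells held Ptpro. On the E11.5 explant plate 4 counts in 1 of 12 such wells gave a ratio of 2.91 (0.708 to 9.02). The 16 such wells of the uncultured plate held 0 counts of Ptpro. For Enpep, 21 of 66 counts of the E12.5 explant plate lay in 27 wells with mesangial and renin cell markers, 2.19-fold (1.24 to 3.75) higher. The ratio was 1.90 (1.37 to 2.6) on the E11.5 explant plate, against 0.201 (0.0235 to 0.779) in 12 such uncultured wells with 2 counts.

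Wells with a count of Pdgfrb, the receptor gene of pericytes and stroma, or of Acta2, smooth muscle actin, were common in culture: 250 of 300 wells (83.3%) on the E11.5 explant plate and 167 of 200 (83.5%) on the E12.5 explant plate, against 89 of 337 (26.4%) on the uncultured plate. This class rests on a single count, and Acta2 also gave 4 counts in 3 of 15 control wells of the E11.5 explant plate and 2 in 2 of 15 of the E12.5 explant plate, against 0 in those of the uncultured plate. Pdgfrb gave 0 counts in the control wells of all 3 plates. Wells with a count of either were deeper than the other wells, with median depths of 9460 against 7275, 10220 against 6484 and 8400 against 6552 counts. On the E11.5 explant plate 1 of 9 members was at least 2-fold higher in them (7.82% of genes tested) and 0 lower (5.86%). The E12.5 explant plate had 2 higher (8.22%) and 0 lower (8.15%). Of 7 members with enough counts on the uncultured plate, 1 was higher (2.37%) and 2 were lower (8.16%).

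The members involved were Podxl, Synpo and Enpep. Podxl was at 27.7 CPM in Pdgfrb or Acta2 wells against 5.13 CPM in other wells of the E11.5 explant plate, a ratio of 5.41 (1.44 to 45.3) on 2 counts in the other wells, and 2.29 without G13. With 3 or more counts of Pdgfrb or Acta2 asked for, which puts G13 on the other side, the ratio was 0.174. On the E12.5 explant plate it was at 32.7 CPM against 0, at least 2.55-fold higher against the floor of 3 counts over the other wells, a call lost without L23, whose only mural counts are 3 of Acta2. Uncultured wells had it at 8.91 CPM against 47.7, a ratio of 0.187 (0.106 to 0.310), which was 0.673 without wells deeper than 3 times the median and so no longer called. Synpo had ratios of 2.61 (1.17 to 7.24) on the E12.5 explant plate and 0.459 (0.22 to 0.906) on the uncultured plate, the second also not called without the deep wells. The E12.5 explant ratio passed the threshold in 2 of 7 alternatives and was 1.08 after thinning, 1.1 with Acta2 alone, 1.64 at 100 CPM or more and 1.89 with Pdgfrb alone. The uncultured one passed in 3 of 6 and was 0.791 at 100 CPM or more. Enpep was 3.07-fold (1.45 to 7.06) higher in the uncultured Pdgfrb or Acta2 wells, and 1.92-fold with 3 or more counts asked for and 1.97-fold with Acta2 alone, both under the threshold.

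Pdgfrb alone gave a split with more even sides, and Rasl11a was the member at least 2-fold higher in Pdgfrb wells on both explant plates. Rasl11a was at 59.1 CPM in Pdgfrb wells and 18.4 CPM in wells without Pdgfrb on the E11.5 explant plate, 3.22-fold (2.12 to 5.01) higher. It was, on the E12.5 explant plate, at 52.1 and 16.7 CPM, 3.13-fold (1.83 to 5.6) higher. Uncultured wells had it at 16.0 and 18.4 CPM, a ratio of 0.868 (0.510 to 1.44). Without the podocyte wells the cultured ratios were 2.76 (1.80 to 4.34) and 3.28 (1.90 to 5.95).

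Because Pdgfrb wells were deeper, each well was also thinned to 3000 counts. Rasl11a was then present in 8.55% (4.175 to 15.16%) of Pdgfrb wells against 4.09% (1.661 to 8.252%) of wells without Pdgfrb on the E11.5 explant plate. The E12.5 explant plate had 14.4% (7.921 to 23.43%) against 5.94% (2.211 to 12.48%). The uncultured plate had 2.04% (0.05166 to 10.85%) against 4.86% (2.535 to 8.333%). The intervals overlap on each plate, so these shares do not settle whether the Rasl11a difference remains at equal depth. Unthinned, the shares were 26.1% against 11.0%, 30.4% against 13.0% and 25.0% against 12.6% on the same plates. Synpo was present in 23.3% of thinned Pdgfrb wells against 3.96% of thinned wells without Pdgfrb on the E12.5 explant plate, 41.3% against 13.0% unthinned. On the E11.5 explant plate the thinned shares were 14.5% (8.70 to 22.2%) against 8.19% (4.55 to 13.4%), with intervals that overlap, and on the uncultured plate 0 of 49 against 10 of 247 wells, the opposite order to the unthinned 17.3% against 9.47%. Within Acta2 wells of the E11.5 explant plate, Rasl11a was at 62.5 CPM with Pdgfrb and 17.0 CPM without. Those of the E12.5 explant plate had 56.0 and 13.0 CPM. In E11.5 explant wells without Acta2 it was at 30.74 CPM (9.98 to 71.73) with Pdgfrb and 23.06 CPM (10.55 to 43.78) without. The E12.5 explant plate had 24.74 (6.742 to 63.35) and 29.98 CPM (12.05 to 61.76), the opposite order. These intervals overlap, so a Rasl11a difference was seen only in wells with Acta2. Wells with both genes were the deepest of these classes, with medians of 11258 and 13107 counts on the E11.5 and E12.5 explant plates.

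Over the 9 members, 3 were at least 2-fold higher in Pdgfrb wells on the E11.5 explant plate (3.48% of genes tested) and 0 lower (7.94%), 1 was higher (3.68%) and 3 were lower (9.58%) on the E12.5 explant plate, and of 7 uncultured 1 was higher (2.44%) and 1 lower (10.1%). Podxl was the lower one on the uncultured plate, with 3 counts in 52 Pdgfrb wells and 117 in 285 wells without Pdgfrb, a ratio of 0.0455 (0.00924 to 0.136). On the E11.5 explant plate its ratio was 1.85, and 0.185 without G13. The E12.5 explant plate gave 0.216, and 1.18 (0.488 to 2.97) without L23, an interval that includes 1. Clic5 and Ptpro were higher in Pdgfrb wells of the E11.5 explant plate, at 4.43-fold (0.884 to 42.8) and 2.06-fold (0.763 to 6.09), and lower in those of the E12.5 explant plate, at ratios of 0.426 (0.0940 to 1.59) and 0.365 (0.115 to 1.01), all with intervals that include 1. Without the podocyte wells Ptpro kept its directions, at 1.27 (0.403 to 4.12), no longer called, and 0.422 (0.130 to 1.21). Clic5 was then at 2.22 (0.319 to 24.6) on the E11.5 explant plate and had 4 counts against 0 on the E12.5 explant plate, both too few for a call. With L23 left out, Synpo at 2.53-fold (1.70 to 3.85) and Magi2 at 2.95-fold (1.15 to 8.94) passed the threshold in Pdgfrb wells of its plate. Leaving out G13 thus turned the Podxl ratio round on the E11.5 explant plate. Leaving out L23 left it without a clear direction on the E12.5 explant plate.

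**Figure D4:**
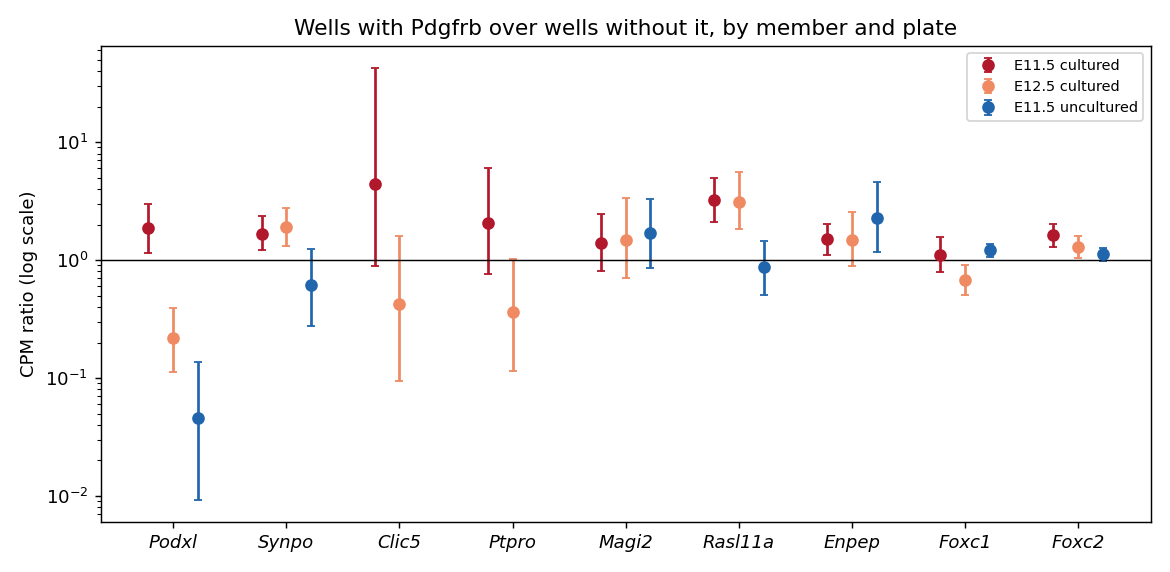
Ratio of the level in Pdgfrb wells to that in wells without Pdgfrb for each member with enough counts, by plate, on a log axis with exact 95% intervals. Rasl11a has ratios of 3.22 and 3.13 on the E11.5 and E12.5 explant plates and 0.868 on the uncultured plate, and uncultured Podxl is lowest at 0.0455.

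Counts of 3 or more members in 1 well were common on all 3 plates. They were found in 78 of 300 wells (26.0%, exact binomial interval 21.1 to 31.4%) of the E11.5 explant plate, 54 of 200 (27.0%, 21 to 33.7%) of the E12.5 explant plate and 86 of 337 (25.5%, 21 to 30.5%) of the uncultured plate. Of these wells 5, 4 and 0 held a count of Nphs1 or Ddn. A count of Pdgfrb or Acta2 was present in 70 of 78, 51 of 54 and 34 of 86, beside 83.3%, 83.5% and 26.4% of all kept wells.

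The make-up of the co-detection differed between plates. Both forkhead genes were present in 37 of 78 E11.5 explant wells, 39 of 54 E12.5 explant wells and 81 of 86 uncultured wells. With Foxc1 and Foxc2 left out, 27, 14 and 6 wells had 3 or more members. Wells with 3 or more members were deeper, with median depths of 14362 against 7870, 15546 against 8022 and 11511 against 6155 counts. Thinned to 3000 counts per well, 8 of 288 (2.78%), 10 of 191 (5.24%) and 16 of 296 (5.41%) had 3 or more. None of the 15 control wells of each plate did without thinning. Their median depths were only 150, 129 and 632 counts, too shallow to compare with the thinned wells.

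Wells with 6 or more members numbered 4 on the E11.5 explant plate, 3 on the E12.5 explant plate and 2 on the uncultured plate. The 2 uncultured wells were among the deepest, with 364620 and 45542 counts. Below L23 on the E12.5 explant plate came well C7, with 7 members, 8 counts of Podxl, 3 of Clic5, 12 of Wt1 and none of Nphs1 and Ddn, and well B10, with 6 members and 28.1 counts of Wt1. Multi-cell wells with 3 or more members made up 12 of 36 (33.3%) and 12 of 38 (31.6%) on the E11.5 and E12.5 explant plates.

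**Figure D5:**
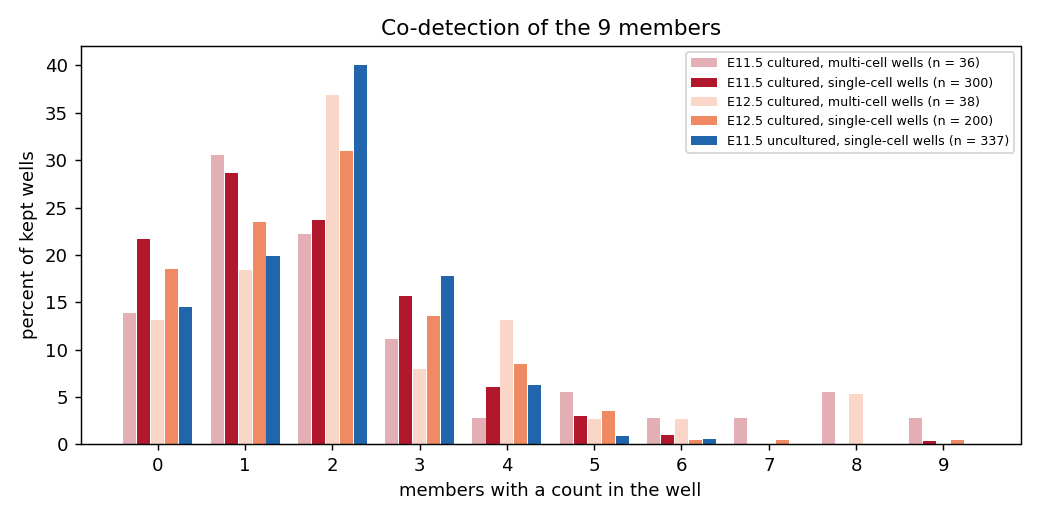
Percent of wells (y axis) by number of the 9 members with a count (x axis) for each plate and kind of well. Most wells hold 0 to 3 members, and wells with 9 were found on the explant plates, 1 single-cell well on each and 1 multi-cell well on the E11.5 explant plate.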

How the data were processed

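Single-cell and multi-cell wells of 3 SORT-seq plates were analysed, 1 plate per group. Per the submitters' processing notes, reads were mapped with STAR 2.6.1a to GRCm38.p5 and counted with featureCounts 1.5.2. The authors deposited tables of estimated counts per gene and well, corrected for barcode saturation, so that high values are not whole. The column of unknown barcodes, which held 4.21 to 4.27% of counts, was left out, and mitochondrial genes were used only for the filter. Wells were kept with 1000 or more counts and a mitochondrial share of 30% or less. Counts were summed over wells, scaled to counts per 1000000 (CPM) and compared as ratios with exact binomial intervals. A gene was called at 2-fold with at least 10 counts in the pair, which departs from a count model because each group is 1 plate. A side at 0 was set to a floor of 3 counts. Wells were assigned to a kind by 3 or more of its listed markers. The genes named are the 9 members, the list genes with the highest and lowest ratios, and the genes whose levels per well were most like a member's. The members, lists and comparisons were chosen with earlier results of these data known. Some listed genes are not reported here. The ratio code was tested on simulated data. Software comprised matplotlib 3.10.9, scipy 1.17.1, Python 3.11.15, pandas 2.3.3 and numpy 2.4.6. Doublets were not called. Alternatives changed the well filter, depth, columns, marker thresholds and wells included.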

Additional observations from a re-analysis of the deposited data

Results flagged for a closer look

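Podxl and Synpo had ratios in opposite directions between plates when Pdgfrb or Acta2 wells were set against other wells. For Podxl the ratio was 5.41 on the E11.5 explant plate and at least 2.55 on the E12.5 explant plate, where the other wells had 0 counts, against 0.187 on the uncultured plate. For Synpo it was 2.61 on the E12.5 explant plate, against 0.459 on the uncultured plate. These 2 Synpo ratios passed the 2-fold threshold in 2 of 7 and 3 of 6 alternatives, with the first as low as 1.08 and the second as high as 0.791. Each difference between plates was not tested, since each group is 1 plate. The podocyte wells G13 and L23, which held 45.2 Podxl counts each, lie on the Pdgfrb or Acta2 side of the explant plates. With 3 or more counts of Pdgfrb or Acta2 asked for, neither of which G13 reached, the E11.5 explant ratio of Podxl was 0.174.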

How the results depend on the processing

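No paired analysis was possible because each group is 1 plate. Of 489 recomputed ratios 425 stayed within the limits of the reported value, 60 moved and 4 turned round, and of 143 recomputed counts 98 stayed and 45 moved. The 4 that turned round were Podxl in Pdgfrb or Acta2 wells of the E11.5 explant plate with 3 or more counts asked for (0.174) and, in multi-cell wells of the E12.5 explant plate without podocyte wells, Podxl (0.158), Ptpro (0.842) and Rasl11a (0.274). For the E11.5 explant plate over the uncultured plate the members higher went to 3 in the even columns and to 3 without podocyte wells. For the E12.5 explant plate over the uncultured plate the number higher went to 3 without each gene's top well and in the even columns, and the number lower to 2 under both and without podocyte wells. Between the explant plates the number higher was 0 without deep wells and 2 in the even columns. In multi-cell wells the number higher was 2 and lower 1 without the top well on the E12.5 explant plate, and 0 and 4 without podocyte wells there. Wells with co-detection on the E11.5 explant, E12.5 explant and uncultured plates numbered 31, 27 and 26 with 4 or more members, 18, 17 and 23 with 2 or more counts of each, 8, 10 and 16 after thinning and 27, 14 and 6 without the forkhead genes. For Pdgfrb or Acta2 wells of the E11.5 explant plate, 0 were higher and 2 lower with 3 or more counts asked for, 3 were higher with Pdgfrb alone, and 1 was lower with Acta2 alone and at 100 CPM or more. On the E12.5 explant plate 1 was higher and 3 lower with Pdgfrb alone, 0 higher and 1 lower with Acta2 alone, 0 higher and 2 lower after thinning, and 1 higher without deep wells and without podocyte wells. On the uncultured plate 0 were higher with 3 or more counts or Acta2 alone and 2 without deep wells, and 0 were lower at 100 CPM, after thinning and without deep wells and 1 with Pdgfrb alone. The cause of these shifts was not tested. Shares over all genes are given above for Pdgfrb alone and not for the other alternatives. Those numbers of members are a description only. The alternative without podocyte wells was chosen after seeing the data. Most members have under 200 counts per plate, so that ratios of Clic5 and Ptpro rest on few counts.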

Other observations

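On the uncultured plate Synpo was most like Gata2 across 337 wells (Pearson r = 0.43), and Magi2 was most like Pgap1 (0.38) and H2-Ke6 (0.36). These are weak correlations in sparse counts from shared wells and are given as a description. Foxc1 and Foxc2 were found together in 53 wells of the E11.5 explant plate, 58 of the E12.5 explant plate and 184 of the uncultured plate. Of the podocyte list outside the 9 members, Sema3g was 9.14-fold lower on the E11.5 than the E12.5 explant plate.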
